A study of Mus musculus with 18 samples.

Results

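The complement and coagulation genes examined here are 42 genes, chosen by name, of the 32285 genes counted in mouse liver. They comprise 21 complement genes and 21 coagulation genes, grouped into 10 branches by the role of their proteins. Liver RNA was sequenced from 18 mice in 3 groups of 6, all labelled strain B6D2F1 and genotype wild-type. Space pups, sacrificed at 10 weeks of age, were fathered through GS cells (germline stem cells, a culture of spermatogonial stem cells) of DBA/2 origin kept frozen in orbit, aboard the International Space Station, over 6 months. Ground pups of the same age stemmed from GS cells stored frozen on Earth over 6 months. In both cases the thawed GS cells had been transplanted into testes of infertile W mice, which were then housed with C57BL/6 females, so Space and Ground pups share the culture, the freezing and the transplantation. BDF1 control mice had none of these in their history, and their age is not stated. The GS cells carried an EGFP transgene according to the methods of the study, and the labels do not say whether the pups of a group came from 1 or several recipients or litters. Each animal gave 1 library, so p-values measure the spread between these libraries. A difference between pups and BDF1 mice cannot be told apart from a difference in age, parentage or handling between them.

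The liver is the main source of the complement and clotting proteins of blood plasma. Complement is started by antibody (classical pathway), by carbohydrate-binding lectins (lectin pathway) or spontaneously at surfaces (alternative pathway), all of which cleave C3, and its late components assemble a membrane pore. Clotting runs through proteases that are secreted inactive and cleave each other until thrombin turns fibrinogen into fibrin, while serpins, protein C with protein S, and plasmin hold it in check. The genes of fibrinogen, C3, C4b, factor B and C9 are known to rise in hepatocytes during the acute phase response to inflammation.

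Total counts per library lay between 15407450 and 20562351. Replicates 1 to 3 and replicates 4 to 6 of every group formed separate sets: Xist had at most 187 counts in the former and at least 12218 in the latter, and 4 Y-linked genes together had at least 1822 and at most 26, respectively. Sex is not among the labels; animals of both sexes were used. Groups were therefore compared within each set, 3 libraries against 3. Alb took 17.6% to 24.1% of counts in the 6 pup libraries of replicates 4 to 6 and 4.47% to 8.03% in the other 12. In the same 6 pup libraries the TMM scaling factors were the lowest, from 0.704 to 0.970, against 1.06 to 1.17 in BDF1 replicates 4 to 6. Space replicate 4 and Ground replicates 5 and 6 also stood apart in Serpina6, which encodes the corticosteroid-binding globulin, with 30940 to 45256 CPM (counts scaled to a common library size) against 117 to 1003 in the other libraries. Hepatocyte markers dominated every library, with 8 genes summing to at least 64238 CPM. Markers of haploid germ cells, 5 genes, summed to 46.3 CPM in Space replicate 6 and 4.75 CPM in BDF1 replicate 3, against at most 0.645 CPM elsewhere. Without Space replicate 6, 7 complement and coagulation genes were called in Space against BDF1 in replicates 4 to 6, against 10 with it. Since these are whole-liver libraries, fewer cells of a type and less RNA per cell cannot be told apart.

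No member passed the test between Space and Ground pups. Of the 41 members that passed the count filter, 0 differed in replicates 1 to 3, where 0.00749% of the 13356 genes tested were called by edgeR (adjusted p under 0.05). The count was again 0 in replicates 4 to 6, against 0.0225% of all genes. It was 0 for the mean of both sets, against 0.0225%, and 0 for the difference between the sets, against 0%. At an unadjusted p under 0.05 there were 3, 2, 3 and 1 members, respectively. DESeq2 called 1 member, F13b in replicates 4 to 6 (log2 change -0.32), and limma voom called Hc, C4b and F9 in replicates 1 to 3 and F5 and C4b for the mean of both sets, all lower in Space pups. The median log2 change of the members was -0.06 in replicates 1 to 3 and -0.12 in replicates 4 to 6, while that of all genes was -0.01 in both.

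Both kinds of pup were compared with BDF1 mice within each set, and the change itself was called different between the sets by edgeR for 1 of 41 members in Space and 3 of 41 in Ground (3.19% and 2.74% of all genes), and by DESeq2 for 9 and 12. For replicates 1 to 3 edgeR called 0 members for Space against BDF1, where 4.64% of all genes were called, and 0 for Ground against BDF1, where 1.92% were called. At an unadjusted p under 0.05 these counts were 10 and 9. DESeq2 called 5 members for Space (Serpinf2, C4b, Hc and C3 lower and C8g higher) and 1 for Ground (Serpinf2), and limma voom called 11 and 8. The count in replicates 4 to 6 was 7 higher and 3 lower for Space against BDF1, against 6.43% and 5.49% of all genes. For Ground pups 19 members were higher and 4 lower, against 7.86% and 7.35% of all genes. The median log2 change of the members was 0.28 for Space and 0.42 for Ground, and that of all genes was 0.01 in both. These comparisons share the BDF1 libraries, so they are not independent of each other. Calls named from here on are those of edgeR unless another tool is given. All shares of all genes are those of edgeR with TMM scaling. They are not the measure for member counts by DESeq2 or limma voom, whose own shares are not given here. The 21 coagulation genes held 16 of the 19 higher calls for Ground pups, and the complement genes held 3 of the 4 lower calls.

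Which members were called, and in which direction the calls fell, depended on the scaling. When libraries were scaled by total counts instead of TMM, the median log2 change of all genes moved to -0.39 for Space and -0.46 for Ground against BDF1 in replicates 4 to 6. The calls then split into 1 higher and 6 lower for Space and into 4 higher and 9 lower for Ground. The shares of all genes called under total counts are not given here, so these splits are not read as a result about the members. Of the 23 Ground calls 4 changed sign (F12, Cpb2, Serpind1 and Plg), and none of the 10 Space calls did. Changes in replicates 4 to 6 are therefore given relative to the bulk of the genes. With DESeq2 size factors the splits were 8 higher and 3 lower for Space and 19 higher and 4 lower for Ground. Against BDF1 mice, over the mean of both sets, 4 members were higher and 2 lower in Space pups, against 7% and 5.91% of all genes, and 12 were higher and 1 lower in Ground pups, against 7.26% and 7.35%. Under total counts those splits were 2 higher and 11 lower for Space and 3 higher and 9 lower for Ground, again without the shares of all genes.

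**Figure D1:**
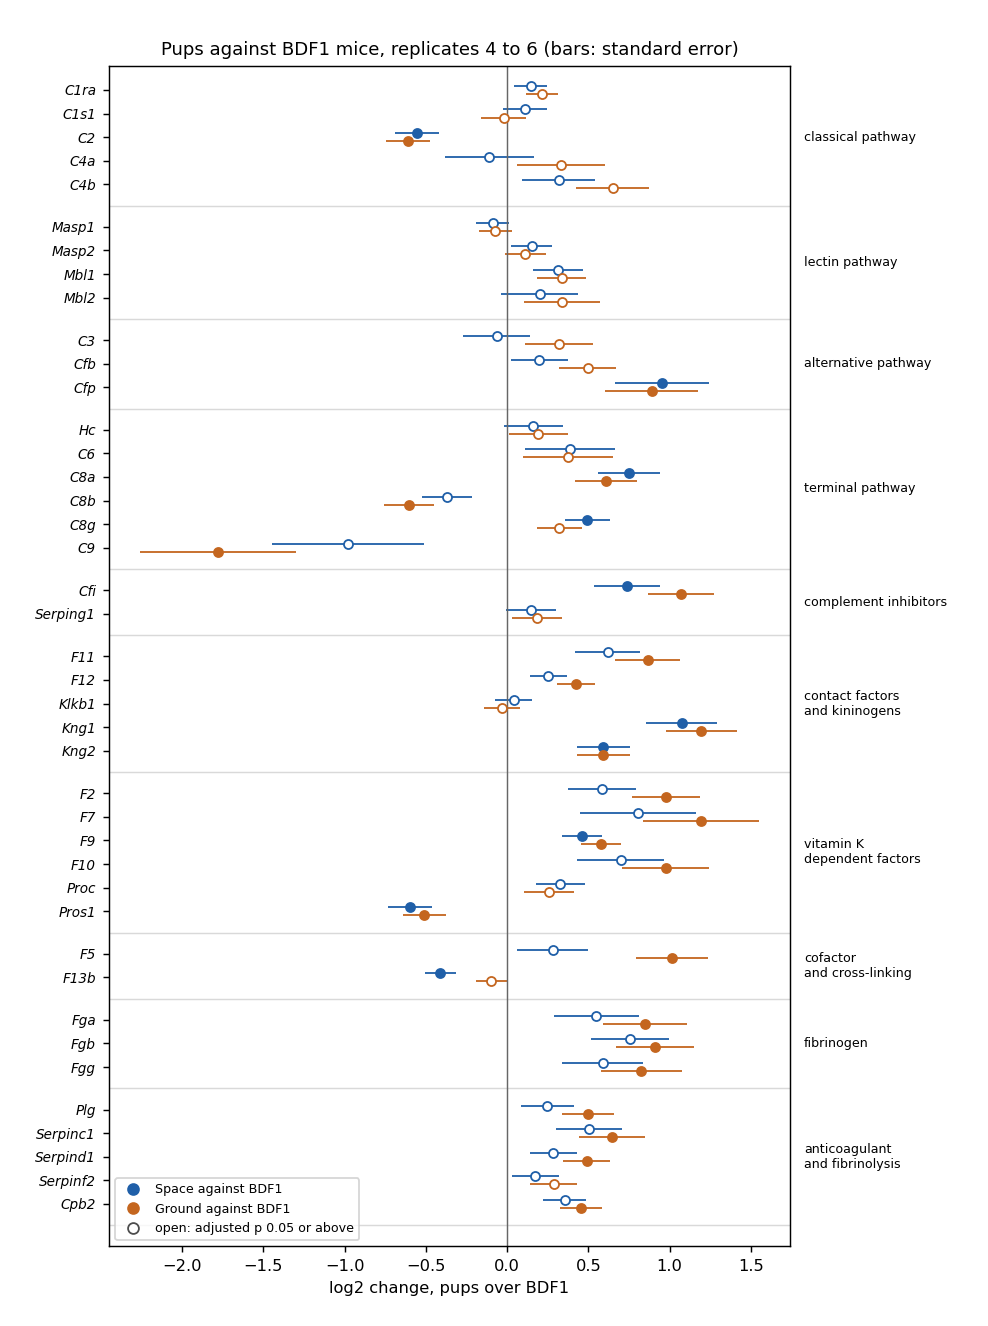
Log2 change of the 41 tested members in replicates 4 to 6, Space pups (blue) and Ground pups (orange) over BDF1 mice, by branch, with standard errors. Filled points have an adjusted p under 0.05 (edgeR). For Ground pups 19 filled points lie to the right of 0 and 4 to the left, and for Space pups 7 and 3.

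The replicate sets were compared with each other among BDF1 mice. Of the members, 3 were higher and 10 lower in replicates 4 to 6 than in replicates 1 to 3, against 7.29% and 7.33% of all genes. Of the 10 lower members 5 belong to the terminal pathway, 3 are the fibrinogen genes, and the others are C4a and Mbl1. The 3 higher members were Mbl2, F13b and Masp1. With total counts 2 were higher and 10 lower, and the median of all genes was then -0.02. The shares of all genes are not given here for that scaling.

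**Figure D2:**
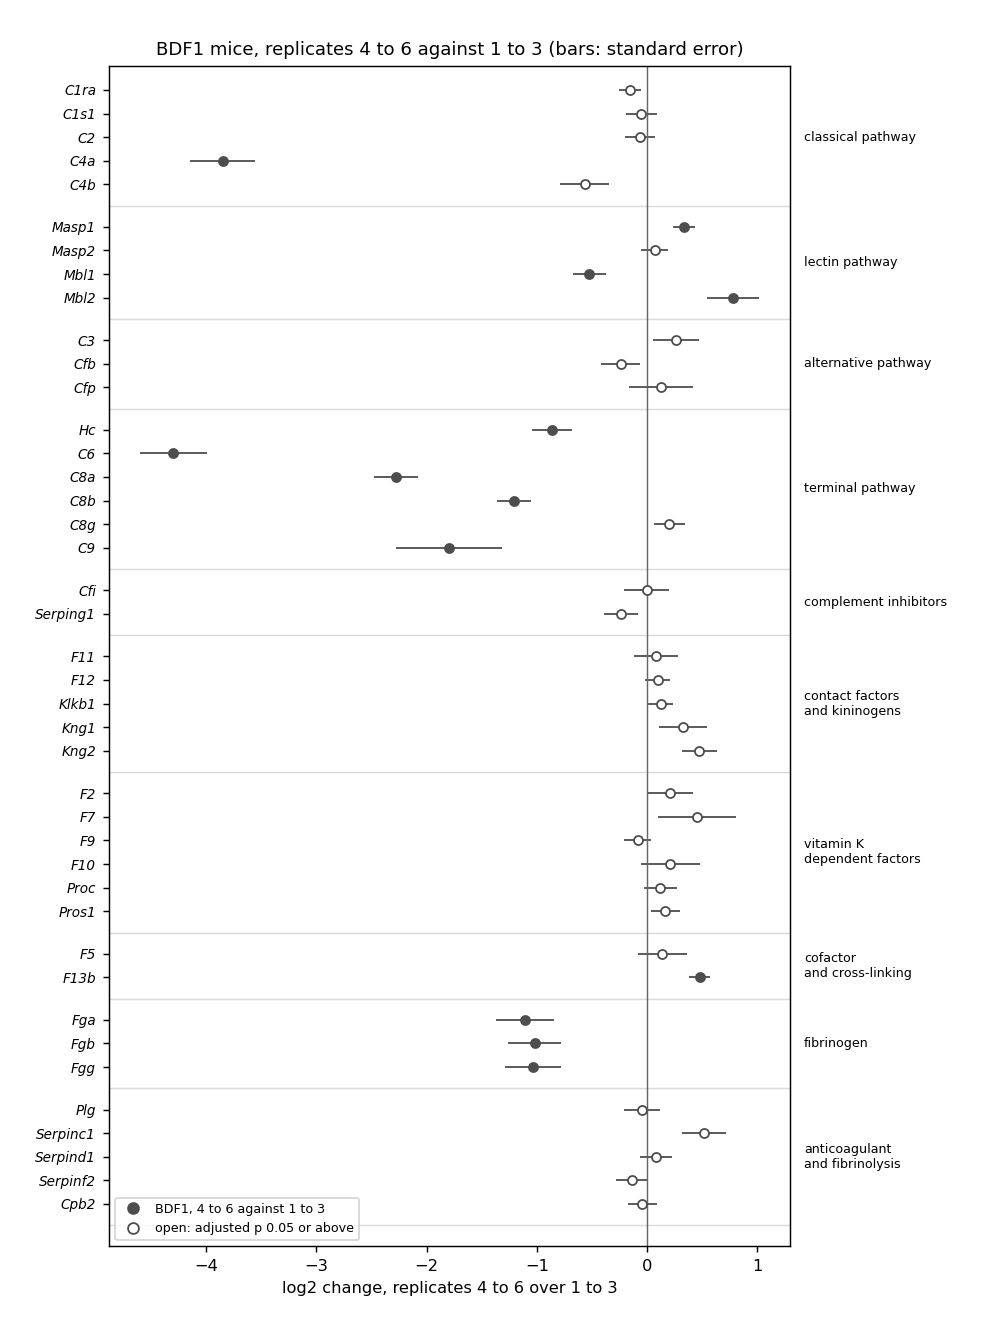
Log2 change of the 41 tested members between BDF1 replicates 4 to 6 and BDF1 replicates 1 to 3, by branch, with standard errors. Filled points have an adjusted p under 0.05 (edgeR). C6 at -4.30, C4a at -3.85 and C8a at -2.28 lie farthest to the left.

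Promoters are shown for the fibrinogen genes and for C8a and C8b because each set sits in a cluster, is described below as a group, and differed between the replicate sets of BDF1 mice. The windows run from 250 bases before to 50 bases after the start site and come from RefSeq on GRCm38.p6, which is mm10, read 5′ to 3′ on the strand of the gene. Capitals mark matches to an HNF1 half-site (GTTAAT), a C/EBP motif (TTGCNNAA) and a STAT motif (TTCNNNGAA), searched on both strands. Hepatocyte nuclear factor 1, C/EBP and STAT proteins are transcription factors with known roles in liver genes.
Fgg, chr3:83007474-83007773, plus strand: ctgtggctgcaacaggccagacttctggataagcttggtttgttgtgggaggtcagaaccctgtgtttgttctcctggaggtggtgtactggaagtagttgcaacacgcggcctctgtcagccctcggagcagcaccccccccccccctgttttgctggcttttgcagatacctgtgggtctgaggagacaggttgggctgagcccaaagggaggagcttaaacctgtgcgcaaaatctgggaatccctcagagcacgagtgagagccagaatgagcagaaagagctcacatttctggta
Fga, chr3:83025903-83026202, plus strand: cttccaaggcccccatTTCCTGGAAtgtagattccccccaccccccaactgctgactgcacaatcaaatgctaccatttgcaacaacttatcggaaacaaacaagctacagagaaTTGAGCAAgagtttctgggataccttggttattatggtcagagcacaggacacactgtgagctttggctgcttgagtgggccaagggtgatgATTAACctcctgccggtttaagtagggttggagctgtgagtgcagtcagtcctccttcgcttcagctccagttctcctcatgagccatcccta
Fgb, chr3:83049814-83050113, minus strand: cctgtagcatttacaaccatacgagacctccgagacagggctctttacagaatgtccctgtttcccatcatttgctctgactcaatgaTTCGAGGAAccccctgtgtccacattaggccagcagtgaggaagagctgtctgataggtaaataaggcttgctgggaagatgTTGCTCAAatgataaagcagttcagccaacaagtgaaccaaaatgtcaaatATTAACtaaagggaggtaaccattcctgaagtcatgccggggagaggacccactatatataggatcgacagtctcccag
C8b, chr4:104766067-104766366, plus strand: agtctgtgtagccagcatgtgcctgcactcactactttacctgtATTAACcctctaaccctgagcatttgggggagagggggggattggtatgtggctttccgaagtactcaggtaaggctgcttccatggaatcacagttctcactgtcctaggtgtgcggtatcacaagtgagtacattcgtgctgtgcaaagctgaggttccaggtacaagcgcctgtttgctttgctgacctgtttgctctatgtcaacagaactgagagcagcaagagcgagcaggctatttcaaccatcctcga
C8a, chr4:104876349-104876648, minus strand: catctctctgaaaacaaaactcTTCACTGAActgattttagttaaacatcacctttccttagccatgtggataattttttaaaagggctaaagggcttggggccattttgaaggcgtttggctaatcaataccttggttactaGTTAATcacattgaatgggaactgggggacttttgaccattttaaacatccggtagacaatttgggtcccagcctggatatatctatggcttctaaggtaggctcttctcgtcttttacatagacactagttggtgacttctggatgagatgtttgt

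The windows of Fga and Fgb hold all 3 motifs, with the HNF1 half-site starting at -43 and -29, the C/EBP motif at -135 and -80 and the STAT motif at -234 and -162, counted from the start site. Fgg holds none in its window. C8b has an HNF1 half-site at -206, and C8a has one at -107 and a STAT motif at -228. RefSeq windows were matched for 32 of the 42 members, 34 windows in all. An HNF1 half-site was in 9 of these 34, a C/EBP motif in 12 and a STAT motif in 7. Among 32851 windows of the whole table the shares were 7.1%, 10.8% and 8.3%. A match of letters is a description and not a bound site.

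The classical pathway genes encode the proteases C1r and C1s, C2, and the C4 proteins, of which C1s cleaves C4b but not the C4a product. C4a, the sex-limited protein gene (ENSMUSG00000015451, chr17:34809092-34823464, minus strand), showed the strongest split by replicate set in this branch. It was at 265, 168 and 221 CPM in BDF1 replicates 1 to 3 and at 16.7, 15.6 and 12.95 CPM in replicates 4 to 6. The pups showed a like split, with 171 to 428 CPM in replicates 1 to 3 and 12.3 to 24.1 CPM in replicates 4 to 6, and the sets do not overlap in any group. Within BDF1 mice C4a was 14.4-fold lower in replicates 4 to 6 (log2 change -3.85 ± 0.29 SE, adjusted p = 2.27e-07). No group comparison within a set called it by edgeR, with log2 changes from -0.44 to 0.51, while limma voom called it higher in Ground pups than in BDF1 mice of replicates 1 to 3 (0.78, adjusted p = 0.0266).

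C4b, which encodes the haemolytically active C4 and lies beside C4a on chromosome 17, did not follow it. Among replicates 1 to 3 it was at 758, 841 and 797 CPM in Space, 1650, 719 and 987 in Ground and 1226, 1378 and 1290 in BDF1. Among replicates 4 to 6 it was at 1082, 959 and 1238 CPM in Space, 1063, 1511 and 1553 in Ground and 882, 917 and 833 in BDF1. Pups thus lay below BDF1 mice in the first set, except Ground replicate 1, and above them in the second, but no edgeR test passed (Ground against BDF1, replicates 4 to 6: log2 change 0.65 ± 0.22 SE, adjusted p = 0.0604). DESeq2 called that change (adjusted p = 0.0245) and the lower level of Space pups in replicates 1 to 3 (-0.70, adjusted p = 0.0277). The 2 transcripts share 35.2% of their windows of 50 bases, so reads of one could have been counted or dropped for the other.

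C2, the protease part of the classical convertase, was the 1 classical gene that edgeR called between groups within a set, and it was lower in pups of replicates 4 to 6. It was at 72.9, 82.5 and 90.0 CPM in Space, 76.3, 85.4 and 74.5 in Ground and 105, 116 and 139 in BDF1. All 6 pup libraries lay below the 3 BDF1 libraries. The change was 1.47-fold lower in Space (log2 change -0.56 ± 0.13 SE, adjusted p = 0.0151) and 1.53-fold lower in Ground (-0.61 ± 0.13 SE, adjusted p = 0.00667). The log2 changes in replicates 1 to 3 were -0.11 and 0.14, with Ground libraries at 115 to 168 CPM and BDF1 at 124 to 129. C2 shares 42.8% of its exon bases with the gene Gm20547 on the same strand. C1ra and C1s1 stayed between 159 and 232 CPM and between 272 and 496 CPM, respectively, and edgeR called neither within a set. Limma voom called both higher in Ground pups of replicates 1 to 3 (C1s1 0.40, adjusted p = 0.0290, and C1ra 0.29, adjusted p = 0.0346). C1ra shares 48% of its windows of 50 bases with C1rb, and C1s1 shares 24.3% with C1s2. For the mean of both sets C1ra was 0.23 higher in Ground pups on the log2 scale (adjusted p = 0.0388), which turned to -0.05 with total counts.

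The lectin pathway genes encode the mannose-binding lectins, which recognise sugars on microbes, and their proteases. No lectin gene was called between groups in either set by edgeR, and limma voom called Mbl2 lower in Ground pups of replicates 1 to 3 (-0.70, adjusted p = 0.0239). The 2 lectins moved in opposite directions between BDF1 replicate sets. Mbl1 was at 176, 220 and 228 CPM in replicates 1 to 3 and at 141, 132 and 161 in replicates 4 to 6 (log2 change -0.52 ± 0.15 SE, adjusted p = 0.0284). Mbl2 was at 228, 408 and 431 CPM against 601, 582 and 653 (log2 change 0.78 ± 0.24 SE, adjusted p = 0.0345). The pups had 213 to 290 CPM of Mbl2 in replicates 1 to 3 and 548 to 937 in replicates 4 to 6, without overlap. Masp1, a lectin-associated protease, was 1.26-fold higher in BDF1 replicates 4 to 6 (adjusted p = 0.0361), at 209, 234 and 197 CPM against 165, 169 and 173. Masp2, which cleaves C4 and C2, stayed between 211 and 303 CPM in all libraries, and 54.9% of its exon bases overlap Tardbp on the opposite strand.

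In the alternative pathway, Cfp was the 1 gene that edgeR called between groups. It encodes properdin, which stabilises the C3 convertase and is made mainly by leukocytes. In replicates 4 to 6 it was at 23.6, 17.6 and 19.3 CPM in Space, 15.9, 23.6 and 18.4 in Ground and 5.81, 13.7 and 11.6 in BDF1. All pup libraries lay above the BDF1 libraries, 1.94-fold for Space (log2 change 0.95 ± 0.29 SE, adjusted p = 0.0408) and 1.85-fold for Ground (0.89 ± 0.29 SE, adjusted p = 0.0459). In the same libraries 6 macrophage markers summed to 121 to 165 CPM in Space, 108 to 167 in Ground and 59.3 to 129 in BDF1, and 5 neutrophil markers to 3.25 to 4.14, 1.81 to 2.69 and 0.345 to 0.857 CPM, without overlap between groups. The part of either cell type in the Cfp result was not tested. Of the 5 neutrophil markers 2 passed the count filter. S100a9, a neutrophil marker, was 4.26-fold higher in Space pups (adjusted p = 0.0330). Its levels were low, at 1.25, 1.75 and 1.56 CPM in Space against 0.295, 0.313 and 0.454 in BDF1. Of the macrophage markers Clec4f passed the test for Space pups (log2 change 0.95, adjusted p = 0.0391). Of 18 fits that each left out 1 library, 8 lost the Cfp call for Space and 10 lost that for Ground.

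C3, the central component, was among the most abundant members. In replicates 4 to 6 it was at 9458, 8953 and 10554 CPM in Space, 11187, 13453 and 13105 in Ground and 10417, 10613 and 9231 in BDF1, and edgeR called no difference (log2 changes -0.06 and 0.32 against BDF1). In replicates 1 to 3 the 3 Space libraries, at 5676, 5878 and 5596 CPM, lay below all BDF1 libraries at 6282, 9165 and 9733, with a log2 change of -0.55 ± 0.21 SE and an adjusted p of 0.146 (0.0454 by DESeq2). Cfb, whose protein pairs with C3b in the alternative convertase, ranged from 1050 to 1912 CPM. Its largest log2 change between groups within a set by edgeR was 0.49 ± 0.18 SE for Ground in replicates 4 to 6 (adjusted p = 0.0677 by edgeR and 0.0252 by DESeq2). Of its exon bases 79.5% are shared with Gm20547. Cfd encodes factor D, also called adipsin, an adipocyte product. It did not pass the filter, with 47 counts (2.45 CPM) in BDF1 replicate 3 and 0 to 5 counts in the other libraries, where a count of 0 allows up to 0.134 to 0.234 CPM by counting error alone. Of 5 adipocyte markers 1 passed the filter, and the summed level of the 5 was 4.01 to 7.99 CPM over all libraries. The highest sum was that of BDF1 replicate 3, where 4 of the 5 had counts, against 1 to 3 in the other libraries, and Fabp4 made 6.84 CPM of it. The part of adipocytes in the Cfd value was not tested.

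The terminal pathway, whose proteins build the membrane attack complex, held the strongest contrasts between replicate sets. C6 (ENSMUSG00000022181, chr15:4727175-4814967, plus strand) was at 319, 265 and 283 CPM in BDF1 replicates 1 to 3 and at 11.2, 14.7 and 18.2 CPM in replicates 4 to 6, 19.6-fold lower (log2 change -4.30 ± 0.31 SE, adjusted p = 1.30e-07). In pups it ranged from 276 to 561 CPM in the first set and from 14.0 to 27.0 CPM in the second. C6 therefore never overlapped between the sets, and edgeR called it in no group comparison. Limma voom called it higher in Ground pups than in BDF1 mice of replicates 1 to 3 (0.79, adjusted p = 0.0192), and DESeq2 did for the mean of both sets (0.51, adjusted p = 0.0470).

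C8a and C8b encode the alpha and beta chains of C8 and lie side by side on chromosome 4 (chr4:104815679-104876398, minus strand, and chr4:104766317-104804548, plus strand). C8a was at 1033, 1067 and 1212 CPM in BDF1 replicates 1 to 3 and at 246, 167 and 269 in replicates 4 to 6, and C8b at 432, 371 and 384 CPM against 146, 166 and 202. The set difference was 4.85-fold for C8a (log2 change -2.28 ± 0.20 SE, adjusted p = 1.07e-06) and 2.31-fold for C8b (-1.21 ± 0.15 SE, adjusted p = 6.23e-05). In pups of replicates 4 to 6 C8a was called higher than in BDF1 mice for both kinds of pup, and C8b was called lower for Ground alone. C8a was at 343, 385 and 420 CPM in Space and 340, 379 and 323 in Ground, all above BDF1, and was 1.68-fold higher in Space (log2 change 0.75 ± 0.19 SE, adjusted p = 0.0197) and 1.53-fold higher in Ground (0.61 ± 0.19 SE, adjusted p = 0.0401). C8b was at 117, 134 and 146 CPM in Space and 112, 106 and 121 in Ground. It was 1.52-fold lower in Ground (log2 change -0.60 ± 0.15 SE, adjusted p = 0.0152), and for Space the change was -0.37 ± 0.15 SE (adjusted p = 0.121). The transcripts of C8a and C8b share no window of 50 bases.

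The group effect on these genes was also compared between the sets. For Space against BDF1, 1 member differed between the sets, against 3.19% of all genes. It was C8a, whose log2 change was 1.08 ± 0.27 SE higher in replicates 4 to 6 than in replicates 1 to 3 (adjusted p = 0.0402). For Ground against BDF1, 3 members did, against 2.74% of all genes. C8b and C2 were lower by this measure, at -0.96 ± 0.22 SE (adjusted p = 0.0259) and -0.75 ± 0.19 SE (adjusted p = 0.0427), and Serpinf2 was higher at 0.79 ± 0.20 SE (adjusted p = 0.0460). These calls sat close to the threshold, and fits that left out 1 library gave between 0 and 5 calls for Space and between 0 and 17 for Ground.

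C9, the pore-forming component on chromosome 15 near C6, was low in pups of replicates 4 to 6. It was at 75.2, 168 and 173 CPM in Space, 160, 44.2 and 34.5 in Ground and 249, 241 and 329 in BDF1. Ground pups were 3.44-fold lower than BDF1 mice (log2 change -1.78 ± 0.48 SE, adjusted p = 0.0201), and the change in Space was -0.98 ± 0.47 SE (adjusted p = 0.177). The 3 lowest of these libraries were the 3 with high Serpina6, and without them the change in Ground was -0.77. Fits that each left out 1 library gave Ground changes from -2.80 to -1.42, and 3 of 18 lost the call. Between BDF1 sets C9 was 3.48-fold lower in replicates 4 to 6 (adjusted p = 0.0186), from 811 to 1139 CPM in replicates 1 to 3.

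Hc, which encodes C5, was at 980, 972 and 1004 CPM in BDF1 replicates 1 to 3 and 548, 521 and 560 in replicates 4 to 6, 1.81-fold lower (log2 change -0.86 ± 0.18 SE, adjusted p = 0.00469). DBA/2 mice are known to carry a defective allele of this gene. Space pups of replicates 1 to 3 were at 621, 726 and 660 CPM, below every BDF1 library of that set, with a log2 change of -0.56 ± 0.18 SE and an adjusted p of 0.0937. Ground pups of that set spread from 605 to 1265 CPM. Pups of replicates 4 to 6 were at 563 to 660 CPM and edgeR called no difference. C8g, a lipocalin that joins C8a in the C8 protein, was the 1 terminal gene without a drop between BDF1 sets (log2 change 0.20 ± 0.14 SE). Space pups of replicates 4 to 6 exceeded BDF1 mice (1.41-fold, adjusted p = 0.0296), at 452, 400 and 333 CPM against 262, 273 and 306, and for the mean of both sets (log2 change 0.47 ± 0.10 SE, adjusted p = 0.00559). Ground pups were also called higher for that mean (log2 change 0.35, adjusted p = 0.0254), a call lost with total counts. In replicates 1 to 3 all Space libraries (320 to 349 CPM) and all Ground libraries (292 to 349 CPM) also lay above the BDF1 libraries (236 to 251 CPM).

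**Figure D3:**
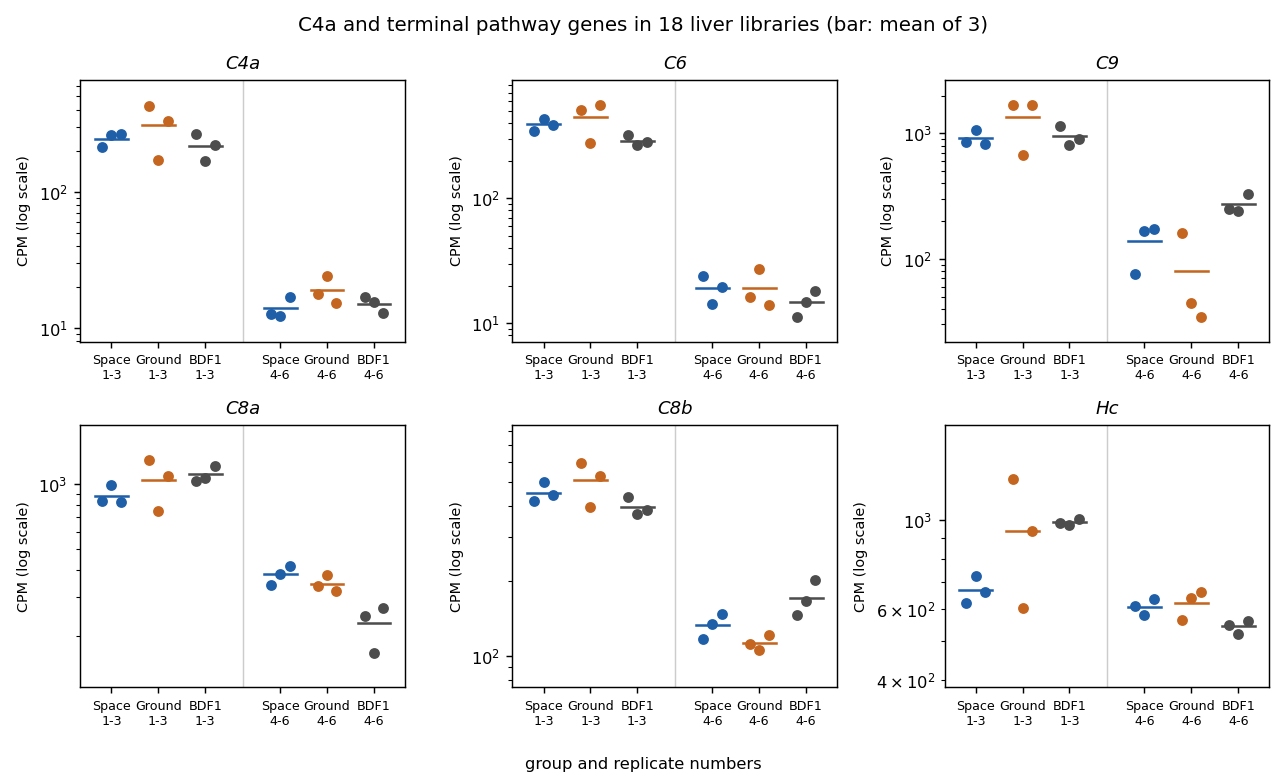
CPM on a log scale of C4a and 5 terminal pathway genes in the 18 libraries, 3 per group and replicate set, with the mean of 3 as a bar. C4a, C6, C9, C8a and C8b of replicates 4 to 6 lie below every library of replicates 1 to 3, and C6 falls from at least 265 CPM to at most 27.0 CPM.

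Of the 2 complement inhibitors, Cfi was higher in pups of replicates 4 to 6. It encodes factor I, the protease that inactivates C3b and C4b. It was at 1289, 863 and 960 CPM in Space, 847, 1483 and 1590 in Ground and 613, 580 and 672 in BDF1, so that no pup library overlapped the controls. The rise was 1.67-fold in Space (log2 change 0.74 ± 0.20 SE, adjusted p = 0.0273) and 2.10-fold in Ground (1.07 ± 0.20 SE, adjusted p = 0.00274). The groups overlapped in replicates 1 to 3, with 567 to 772 CPM in pups and 578 to 653 in BDF1. Serping1, the C1 inhibitor, was between 745 and 1128 CPM and edgeR called it in no comparison. Limma voom called it lower in Space pups of replicates 1 to 3 (-0.41, adjusted p = 0.0181).

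The contact system starts clotting at surfaces and releases bradykinin from kininogen. Kng1, the kininogen gene (ENSMUSG00000022875, chr16:23057865-23082078, plus strand), had the smallest adjusted p of all members for both kinds of pup in replicates 4 to 6. It was at 6076, 4245 and 4383 CPM in Space, 3670, 5639 and 6675 in Ground and 2173, 2169 and 2640 in BDF1. Pups stood 2.11-fold higher in Space (log2 change 1.07 ± 0.22 SE, adjusted p = 0.00582) and 2.29-fold higher in Ground (1.19 ± 0.22 SE, adjusted p = 0.00236), and no fit that left out 1 library lost either call. In replicates 1 to 3 the groups overlapped between 1563 and 2448 CPM, and the log2 changes were 0.18 and 0.15.

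Kng2, the other kininogen gene of the mouse, followed Kng1. It was at 453, 387 and 406 CPM in Space, 359, 434 and 455 in Ground and 257, 259 and 311 in BDF1 of replicates 4 to 6, which was 1.51-fold higher in both kinds of pup (adjusted p = 0.0282 and 0.0221). The 2 transcripts share 18% of the windows of 50 bases of Kng1, so the genes are not fully separate measurements. F11, whose protein activates factor IX, was at 205, 140 and 148 CPM in Space, 125, 216 and 243 in Ground and 87.8, 118 and 115 in BDF1. It was 1.82-fold higher in Ground (log2 change 0.87 ± 0.20 SE, adjusted p = 0.00899), and in Space the change was 0.62 ± 0.20 SE (adjusted p = 0.0531, and 0.0235 by DESeq2). F12, the zymogen that begins the contact cascade, was at 473, 559 and 671 CPM in Ground against 418, 406 and 447 in BDF1 (log2 change 0.42 ± 0.12 SE, adjusted p = 0.0215), and turned to -0.07 with total counts. Klkb1, plasma prekallikrein, stayed between 290 and 400 CPM in all libraries, and 43.2% of its exon bases are shared with Gm45753.

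Of the 6 vitamin K dependent factors, F9 was higher and Pros1 lower in both kinds of pup in replicates 4 to 6, and F2, F7 and F10 were called higher in Ground pups. F2, the prothrombin gene, was at 3325, 2123 and 2285 CPM in Space, 2118, 3954 and 4092 in Ground and 1700, 1663 and 1798 in BDF1 of replicates 4 to 6. The change was 1.97-fold in Ground (log2 change 0.98 ± 0.21 SE, adjusted p = 0.00592) and 0.58 ± 0.21 SE in Space (adjusted p = 0.0757, and 0.0317 by DESeq2). F9, the haemophilia B gene, was at 295, 271 and 306 CPM in Space, 287, 313 and 347 in Ground and 216, 201 and 217 in BDF1. Both kinds of pup passed for F9, with log2 changes of 0.46 ± 0.12 SE (adjusted p = 0.0254) and 0.58 ± 0.12 SE (adjusted p = 0.00573), and its 3 pup libraries of each group lay closer together, relative to their level, than those of F2, F7 or F10.

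F7 and F10 encode the factors that meet tissue factor and prothrombin, respectively. The 2 genes lie next to each other on chromosome 8 (chr8:13026034-13035809 and chr8:13037308-13056676, plus strand). F10 was at 1248, 643 and 639 CPM in Space, 559, 1308 and 1197 in Ground and 485, 506 and 567 in BDF1 of replicates 4 to 6. F7 was at 469, 172 and 190 CPM in Space, 159, 542 and 386 in Ground and 149, 156 and 170 in BDF1. In both genes 3 pup libraries stood far above the rest, and the lowest Ground library overlapped the BDF1 libraries. Ground pups were called higher for F10 (1.97-fold, log2 change 0.97 ± 0.27 SE, adjusted p = 0.0221) and F7 (2.29-fold, 1.19 ± 0.36 SE, adjusted p = 0.0334), and Space pups were not (adjusted p = 0.0937 and 0.145).

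Pros1, the gene of protein S, the cofactor of activated protein C, was lower in pups. In replicates 4 to 6 it was at 28.0, 35.6 and 37.2 CPM in Space, 41.3, 31.0 and 35.0 in Ground and 52.6, 51.3 and 48.8 in BDF1. All 6 pup libraries lay below the controls, 1.51-fold in Space (log2 change -0.60 ± 0.13 SE, adjusted p = 0.0102) and 1.42-fold in Ground (-0.51 ± 0.13 SE, adjusted p = 0.0183). Proc, the gene of protein C itself, was at 486 to 742 CPM in pups and 450 to 581 in BDF1 mice of replicates 4 to 6. For Space edgeR called it over the mean of both sets (log2 change 0.35 ± 0.11 SE, adjusted p = 0.0411).

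F5, whose protein is the cofactor of factor Xa, was at 719, 399 and 523 CPM in Space, 637, 1216 and 872 in Ground and 530, 430 and 390 in BDF1 of replicates 4 to 6. Ground pups were 2.02-fold higher than BDF1 mice (log2 change 1.01 ± 0.22 SE, adjusted p = 0.00637) and all 3 lay above the BDF1 libraries, while Space pups overlapped them (0.28 ± 0.22 SE, adjusted p = 0.417). Space against Ground gave -0.73 ± 0.22 SE (adjusted p = 0.202). F13b, the carrier subunit of the fibrin cross-linking factor XIII, behaved otherwise. It was at 154, 149 and 175 CPM in Space, 199, 203 and 192 in Ground and 226, 207 and 202 in BDF1. Space pups were 1.33-fold lower than BDF1 mice (log2 change -0.41 ± 0.10 SE, adjusted p = 0.0122), and no Space library reached the other groups. The change for Ground was -0.10 ± 0.10 SE (adjusted p = 0.532), and Space against Ground gave -0.32 ± 0.10 SE (adjusted p = 0.202). F13b in replicates 1 to 3 was at 139 to 162 CPM in all 9 libraries.

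The 3 fibrinogen chains were the most abundant members per kilobase of exon, followed by C3, in BDF1 replicates 1 to 3. Fgg, Fga and Fgb lie together on chromosome 3, between bases 83007724 and 83049863. In BDF1 mice each was lower in replicates 4 to 6. Fga was at 6186, 8645 and 10508 CPM in replicates 1 to 3 and at 4012, 3674 and 4076 in replicates 4 to 6 (2.15-fold, log2 change -1.11 ± 0.26 SE, adjusted p = 0.00954). Fgb was at 5281, 7705 and 9163 CPM against 3621, 3365 and 3934 (2.03-fold, -1.02 ± 0.24 SE, adjusted p = 0.00979). Fgg was at 3982, 5723 and 6825 CPM against 2658, 2531 and 2873 (2.05-fold, -1.04 ± 0.25 SE, adjusted p = 0.0111). The sets did not overlap in any of the 3 genes, and the calls of Fgb and Fgg were lost without BDF1 replicate 3 (adjusted p = 0.0508 and 0.0567).

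In pups the sets overlapped. Fga was at 4899, 6181 and 5164 CPM in Space and 9514, 4975 and 5438 in Ground of replicates 1 to 3, and at 6306, 4674 and 6234 in Space and 5051, 8308 and 7801 in Ground of replicates 4 to 6. All 6 pup libraries of replicates 4 to 6 exceeded the 3 BDF1 libraries for Fga, Fgb and Fgg. Ground pups passed the test in each gene, with log2 changes of 0.85 ± 0.26 SE for Fga (adjusted p = 0.0370), 0.91 ± 0.24 SE for Fgb (adjusted p = 0.0187) and 0.82 ± 0.25 SE for Fgg (adjusted p = 0.0350). Of 18 fits that each left out 1 library, 5, 4 and 5 lost these calls, respectively, and total counts lost all 3. Without the 3 libraries with high Serpina6 the Ground changes were 0.37, 0.47 and 0.31. Space pups had log2 changes of 0.55, 0.76 and 0.59 (adjusted p = 0.169, 0.0505 and 0.129). In replicates 1 to 3 the changes against BDF1 were negative in both kinds of pup, from -0.31 to -0.64, and none passed by edgeR, while limma voom called all 3 genes lower in Space pups (adjusted p from 0.0217 to 0.0434). The difference between the sets was 1.13 to 1.27 on the log2 scale, with adjusted p from 0.0522 to 0.0967 by edgeR. DESeq2 called it for all 3 genes in both kinds of pup (adjusted p from 0.00372 to 0.0215) and also called Fgb higher in Space pups of replicates 4 to 6 (adjusted p = 0.0108).

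**Figure D4:**
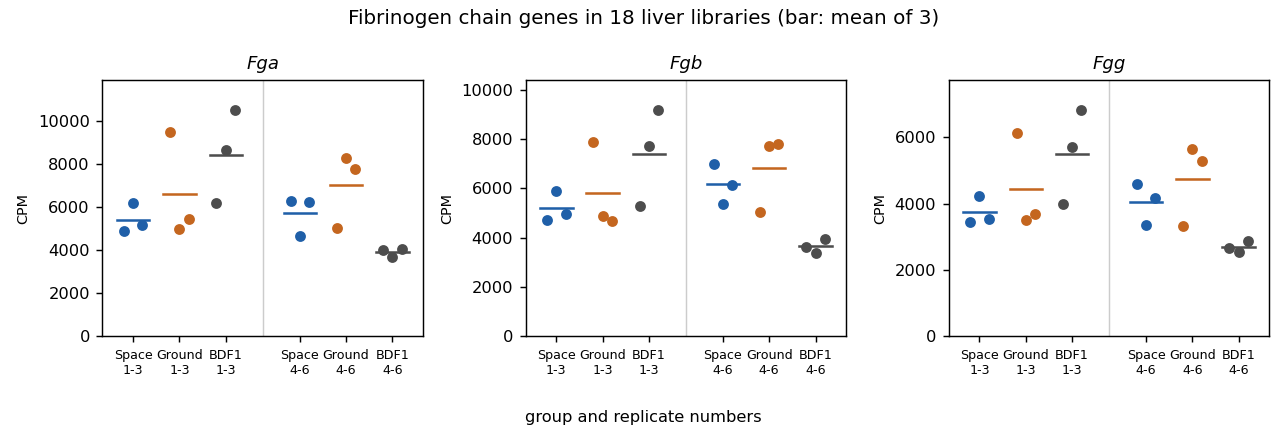
CPM of Fga, Fgb and Fgg in the 18 libraries, 3 per group and replicate set, with the mean of 3 as a bar. In BDF1 mice Fga lies at 6186 CPM or more in replicates 1 to 3 and at 4076 CPM or less in replicates 4 to 6, while the pups of both sets lie between 4674 and 9514 CPM.

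The last branch holds inhibitors of clotting and the fibrin-dissolving system, of which 4 of 5 were called higher than in BDF1 mice in Ground pups of replicates 4 to 6 (7.86% of all genes) and 0 of 5 in Space pups (6.43% of all genes). Space against Ground called 0 of them, and DESeq2 called Cpb2 in Space against BDF1 (log2 change of 0.35, adjusted p = 0.0379). Serpinc1, antithrombin, was at 4213, 2790 and 2638 CPM in Space, 2468, 3902 and 4269 in Ground and 2149, 2138 and 2516 in BDF1 (Ground against BDF1: log2 change 0.65 ± 0.20 SE, adjusted p = 0.0400). Ground replicate 4 overlapped the controls, and 34.4% of the exon bases of the gene overlap Zbtb37 on the opposite strand. Plg, plasminogen, was at 3292, 4786 and 5034 CPM in Ground against 3196, 2983 and 3107 in BDF1 (0.50 ± 0.16 SE, adjusted p = 0.0468). Serpind1, heparin cofactor II, was at 630, 1021 and 860 CPM in Ground against 612, 574 and 600 in BDF1 (0.49 ± 0.14 SE, adjusted p = 0.0305). Cpb2, which protects fibrin from plasmin, was at 398, 456 and 546 CPM against 316, 337 and 369 (0.46 ± 0.13 SE, adjusted p = 0.0265). With total counts the changes of Plg, Serpind1 and Cpb2 turned to -0.0093, -0.011 and -0.037. Serpinf2, the plasmin inhibitor, was not called within a set by edgeR. DESeq2 called it lower in replicates 1 to 3 for Space (-0.48, adjusted p = 0.00859) and Ground (-0.50, adjusted p = 0.0100), where all pup libraries (690 to 927 CPM) lay below all BDF1 libraries (1029 to 1216 CPM).

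Many of the higher values in replicates 4 to 6 were those of the 3 libraries with high Serpina6. For Kng1, F2, F7, F10, Cfi and Serpinc1 these were the 3 highest of all 18 libraries. Without them, which leaves 1 Ground and 2 Space libraries in that set, 0 members were called for Ground against BDF1 in place of 23. The log2 change for Ground then fell from 1.19 to 0.01 for F7, from 0.97 to 0.11 for F10, from 0.98 to 0.30 for F2, from 0.65 to 0.13 for Serpinc1 and from 1.07 to 0.45 for Cfi. Kng1 fell from 1.19 to 0.66 (adjusted p = 0.0585) and C2 went from -0.61 to -0.65 (adjusted p = 0.0508), so both calls were lost. The calls of C8a and C8b were lost with changes of about the same size (0.61 to 0.59 and -0.60 to -0.61), and F9 went from 0.58 to 0.45. In this fit the lone Ground library was assumed to vary like the others, and with fewer libraries a lost call alone does not show that the 3 left out carried the change. For Space against BDF1 the changes in this fit were 0.89 for Kng1, -0.49 for Pros1, 0.82 for C8a and -0.39 for F13b. They were 0.55 for Cfi, 0.43 for F11, 0.35 for F2, 0.30 for F10, 0.26 for Serpinc1 and 0.19 for F7. Leaving out 1 library at a time gave between 8 and 27 members for Ground, the lowest without Ground replicate 5 or 6 and the highest without Ground replicate 4, and between 4 and 14 for Space, the lowest without Space replicate 4 or BDF1 replicate 4 and the highest without Ground replicate 4.

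**Figure D5:**
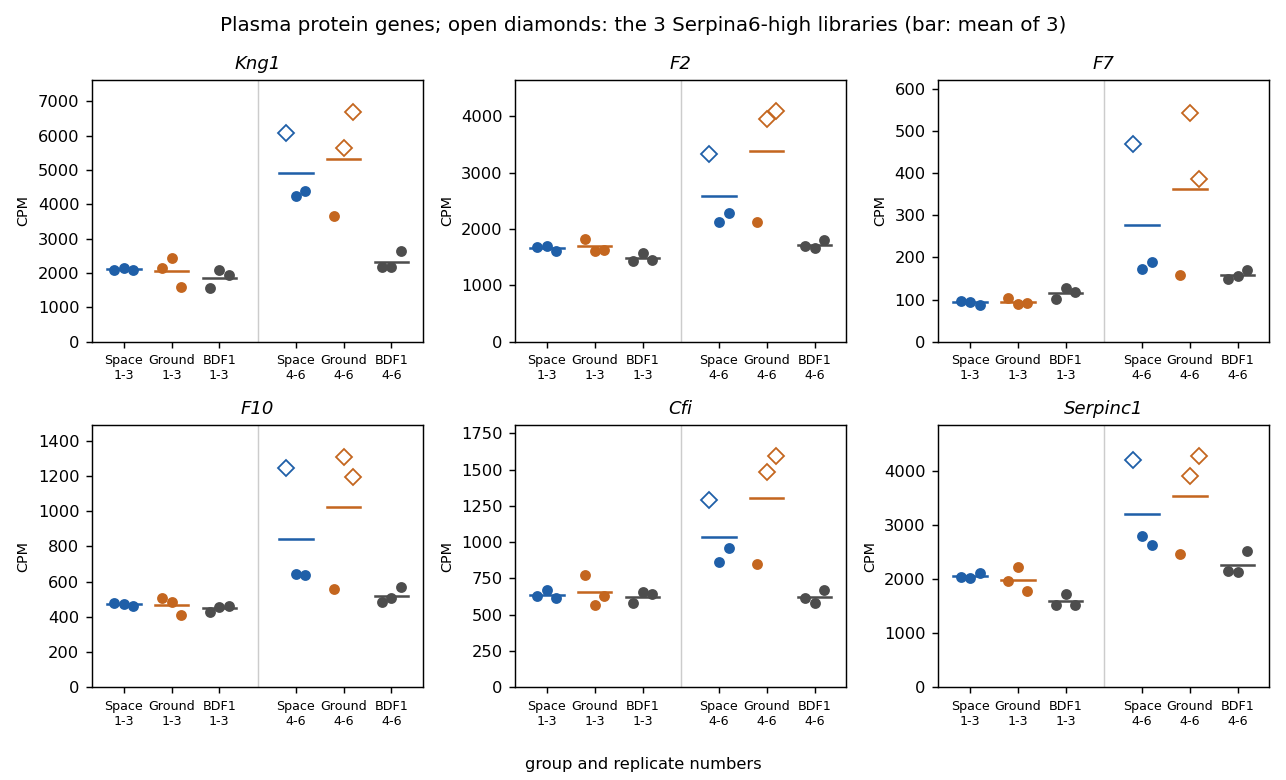
CPM of Kng1, F2, F7, F10, Cfi and Serpinc1 in the 18 libraries, 3 per group and replicate set, with the mean of 3 as a bar. Open diamonds mark the 3 libraries with high Serpina6, which are the highest in all 6 genes. For F7 they lie at 386 to 542 CPM and all other libraries at or below 190 CPM.

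Other genes of these pathways were taken from lists outside the 42 members. Of 29 other complement genes tested, 4 were higher and 0 lower in Space pups and 7 higher and 0 lower in Ground pups than in BDF1 mice of replicates 4 to 6. Among all genes 6.43% were higher and 5.49% lower for Space, and 7.86% and 7.35% for Ground. C4bp, which helps factor I to cleave C4b, was at 508, 503 and 545 CPM in Space, 532, 555 and 587 in Ground and 376, 334 and 365 in BDF1, without overlap (log2 change 0.53 ± 0.12 SE, adjusted p = 0.00854, and 0.64 ± 0.12 SE, adjusted p = 0.00226). Fcna, the ficolin A gene, a lectin made by macrophages, was 2.10-fold and 2.19-fold higher (adjusted p = 0.0223 and 0.0128), and Cpn1, a carboxypeptidase that trims C3a and C5a, was 1.57-fold and 1.67-fold higher (adjusted p = 0.0281 and 0.0110). Of 27 other coagulation genes tested, 5 were higher and 1 lower in each kind of pup, beside the same shares of all genes. Hgfac, a protease related to factor XII, was 1.95-fold and 2.06-fold higher (adjusted p = 0.00111 and 0.000497). F2r, a thrombin receptor, and Mug1, a protease inhibitor, were not called between groups and were 4.35-fold and 2.33-fold lower in BDF1 replicates 4 to 6 than 1 to 3 (adjusted p = 3.01e-05 and 0.000497).

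The 10 acute phase genes had a median log2 change between BDF1 sets of -1.37, with 0 higher and 2 lower (7.29% and 7.33% of all genes). Against BDF1 mice their median was -1.94 for Space and -0.21 for Ground in replicates 1 to 3, where Fgl1, a fibrinogen-like hepatocyte protein, was called 5.79-fold lower in Space, and 0.89 and 0.79 in replicates 4 to 6, where Apcs and Orm1 were called higher in Space and Apcs and Crp in Ground. The change of Space against BDF1 differed between the sets for Hp (2.33 on the log2 scale, adjusted p = 0.0313), Fgl1 (3.69, adjusted p = 0.0469) and Lcn2 (6.06, adjusted p = 0.0328), higher in replicates 4 to 6 each time. Hp, haptoglobin, was at 3201, 7387 and 7614 CPM in BDF1 replicates 1 to 3 and 1697, 1417 and 1837 in replicates 4 to 6 (3.68-fold lower, adjusted p = 0.00491). Saa1, serum amyloid A, was at 203, 577 and 690 CPM against 14.2, 21.7 and 39.8 (adjusted p = 0.0239). Ground replicate 1 had 1615 CPM of Saa1, against 38.6 and 45.6 in Ground replicates 2 and 3, and it also had the highest C4b, Hc and Fga of the 6 pup libraries of replicates 1 to 3. The part of these values in the fibrinogen difference between sets was not tested. Crp, the C-reactive protein gene, was 1.73-fold higher in Ground pups than in BDF1 mice of replicates 4 to 6 (adjusted p = 0.0106).

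Compared per kilobase of exon, the levels of the members spanned a wide range in BDF1 replicates 1 to 3. Fga (2806 CPM per kilobase), Fgg (2633) and Fgb (1938) led, with Fgb close to C3 (1632), and Plg (860) and Kng1 (572) followed. Among BDF1 replicates 4 to 6 C3 (1961) exceeded Fga (1302) and Fgg (1284). At the other end were Cfd (0.958), which did not pass the filter, Cfp (5.49), Pros1 (11.1) and Masp1 (17.2). C6 moved from 81.3 to 4.13 CPM per kilobase and C4a from 35.1 to 2.43 between these sets, below every other tested member in the second set.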

How the data were processed

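Liver RNA of 18 mice was sequenced, 1 library per animal, with a stranded mRNA kit per the labels. The deposited table holds raw counts per gene, which the authors made from reads on mm10. The submitters' processing notes name bcl2fastq 2.20, cutadapt 4.6, HISAT2 2.2.1 and HTSeq 2.0.2. The counting mode and strand setting are not given in the sources used here, so reads of overlapping or antisense genes cannot be told apart. From the counts, CPM were computed here with TMM-scaled library sizes. Group differences were tested on the counts with edgeR 4.0.16 in R 4.3.3 (quasi-likelihood test, TMM, filterByExpr), with 6 cells of group and replicate set over all 18 libraries. P-values were adjusted by Benjamini-Hochberg over 13356 genes, and a gene was called at an adjusted p under 0.05. Changes are log2 with a standard error (SE). The table gave 42 of 42 members, of which 41 passed the filter.

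The members and gene lists were chosen with earlier results of these data known. Up to 4 members per branch with the smallest adjusted p, and C4a, Hc, Fga, Fgb and Fgg, were described by library, and up to 3 genes per other list. Values of the remaining members were added after they were seen. Alternatives were DESeq2 1.42.0, limma 3.58.1 (voom), other scalings and filters, a replicate block, separate fits and left-out libraries. No pair of libraries of the same group agreed within sampling noise (lowest chi-square per gene 9.78), and pairs across groups were not compared. The fit was tested on simulated data with known changes. Gene positions and exon overlaps come from GENCODE on mm10, and promoter sequences from RefSeq.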

Additional observations from a re-analysis of the deposited data

Results flagged for a closer look

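In each group of 6 libraries the gap between the highest or lowest library and its neighbour was divided by the range of the group, and gaps above Dixon's critical value for 6 samples were listed. Of 126 sets examined 10 had such a library. Chance flags about 1 in 20 groups, which is 6.3 here. Since each group joins both replicate sets, a gap can lie between libraries of different sets.

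Space replicate 4 gave 5 of the 10. It was highest in F10 (0.77 of the range, 1248 CPM against 643 in the next library), F7 (0.734, 469 against 190), Cfb (0.727, 1521 against 1259) and Serpinc1 (0.649, 4213 against 2790), and lowest in C1s1 (0.702, 303 against 384). This library is 1 of the 3 with high Serpina6, and the part of that in these values was not tested. BDF1 replicate 1 was lowest in C3 (0.666, 6282 against 9165 CPM), BDF1 replicate 4 highest in F5 (0.715, 530 against 430 CPM) and BDF1 replicate 6 highest in Proc (0.665, 581 against 489 CPM). Cfd stood out in BDF1 replicate 3 (0.943, 2.45 against 0.140 CPM) and, with 3 counts, in Ground replicate 2 (1, 0.158 against 0 CPM).

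The pup effect against BDF1 differed between replicates 4 to 6 and replicates 1 to 3 in 4 cases by the edgeR test of the difference itself. The difference in log2 change was 1.08 for C8a in Space pups, and -0.75 for C2, -0.958 for C8b and 0.792 for Serpinf2 in Ground pups. Without the 3 libraries with high Serpina6 C8a kept 1.16 (adjusted p = 0.0281), while C2 was at -0.79 (adjusted p = 0.0924), C8b at -0.97 (adjusted p = 0.0754) and Serpinf2 at 0.46 (adjusted p = 0.257).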

How the results depend on the processing

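Counts of called members are given for each comparison that moved by more than 1.5 times. The share of all genes called under each setting is not given, so a count is not read as an excess among the members. The causes were not tested. With total counts, Space against BDF1 gave 2 in replicates 1 to 3, 13 for the mean of both sets and 0 for the difference between sets, and Ground against BDF1 gave 1 in replicates 1 to 3 and 13 in replicates 4 to 6. The same scaling turned the Ground changes in replicates 4 to 6 to -0.073 for F12, -0.037 for Cpb2, -0.011 for Serpind1 and -0.0093 for Plg, and that of C1ra for the mean of both sets to -0.050. The DESeq2 test gave 1 for Space against Ground in replicates 4 to 6, 5, 12 and 9 for Space against BDF1 (replicates 1 to 3, mean, difference), and 1 and 12 for Ground against BDF1 (replicates 1 to 3, difference). Limma voom gave 3 and 2 for Space against Ground (replicates 1 to 3, mean), 11, 16 and 12 for Space against BDF1 (replicates 1 to 3, mean, difference), and 8, 21 and 14 for Ground against BDF1 (replicates 1 to 3, mean, difference). For Space against BDF1 a mean of at least 5 CPM gave 1 in replicates 1 to 3 and 3 for the difference, no filter gave 2 for the difference, and removal of the 10 most abundant genes gave 2 for the difference. Separate fits of each set gave 2 and 4 for Space against BDF1 (replicates 1 to 3, 4 to 6) and 1 and 7 for Ground. Group alone gave 2 for Space and 0 for Ground against BDF1. Without the 3 libraries high in Serpina6, Space against BDF1 gave 3 in replicates 1 to 3 and 3 for the difference, and Ground gave 3 in replicates 1 to 3, 0 in replicates 4 to 6, 1 for the mean and 0 for the difference.

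With the replicate number as a block, Space against BDF1 gave 5 in replicates 4 to 6 and 0 for the difference, and Ground gave 11 in replicates 4 to 6, 5 for the mean and 0 for the difference. The block gave 9 for the BDF1 sets, 4 for the mean of Space against BDF1 and 0 in the other comparisons. Same-numbered libraries correlated at 0.195 to 0.637 in their deviations from group means and at -0.601 to 0.251 within replicate sets, where 3 of 18 pairs exceeded 0.1, so the numbers carry the set and do not pair libraries within it.

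Leaving out each library in turn gave 0 to 1 for Space against Ground in replicates 1 to 3 (1 without Ground replicate 2), 0 in replicates 4 to 6 and for the difference, and 0 to 2 for the mean. Space against BDF1 gave 0 to 2, 4 to 14, 3 to 11 and 0 to 5 (replicates 1 to 3, 4 to 6, mean, difference), and Ground gave 0 to 1, 8 to 27, 5 to 19 and 0 to 17. The highest of these came without Ground replicate 4 in each case, and the lowest for the Ground mean without Ground replicate 6. The BDF1 sets gave 9 to 15. At most 47 counts per library stood behind Cfd, which was not tested.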
